A study of Mus musculus with 2 samples.

Results

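The 10 genes described here encode 8 inhibitory receptors of lymphocytes and myeloid cells, Pdcd1 (PD-1), Ctla4, Lag3, Tigit, Havcr2 (TIM-3), Cd160, Cd200r1 and Cd244 (2B4), and 2 ligands of PD-1, Cd274 (PD-L1) and Pdcd1lg2 (PD-L2). They were chosen by symbol, each had 1 row among the 27998 genes of the matrices, and they were read in every barcode with at least 500 detected genes. Inhibitory receptors sit on the cell surface and dampen activation when they meet their ligand, often through phosphatases recruited to the receptor's tail. In the liver they are studied on resident lymphocytes, among them group 1 innate lymphoid cells (ILC1), which carry CD49a and are commonly told from circulating natural killer (NK) cells by CD200R. CD160 is likewise carried by innate and resident lymphocytes. Dendritic cells (DC) and monocytes are the usual carriers of the ligands.

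The study profiled liver cells of C57BL/6 wild-type mice aged 7 to 10 weeks by droplet single-cell RNA sequencing, with 1 library from each of 2 sorting gates. The LSM library held CD45+ lineage-negative cells positive for Sca-1 and Mac-1, and the CD122+CD49a+ library held CD45+ lineage-negative cells positive for CD122 and CD49a. Neither the antibodies of the lineage mix nor the number of mice pooled is given in the labels. With 1 library per gate no test across samples was possible, so no p-value is given and every interval below is an exact 95% interval for counting error only. A unique molecular identifier (UMI) stands for 1 captured transcript.

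After the gene minimum 3074 LSM cells and 1257 CD122+CD49a+ cells remained, with medians of 5100.5 and 1461 UMIs per cell. The LSM library was therefore the deeper one, and shares of cells with a UMI cannot be compared between libraries without thinning. The genes of the gating proteins were found in part: Il2rb (CD122) had a UMI in 29.9% of CD122+CD49a+ cells and 0.423% of LSM cells, and Itga1 (CD49a) in 6.52% and 0.716%. Itgam (Mac-1) had a UMI in 14.5% of LSM cells and 5.41% of CD122+CD49a+ cells, and Ly6a (Sca-1) in 29.7% and 18.1%, without thinning. The libraries shared 3 barcodes, 2 of them among the kept cells of both.

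Cells were placed in classes by marker UMIs, at least 2 over a list: lymphocytes by the CD3 chains plus NK and ILC1 genes, and others by lists for type 1 DC (cDC1), Cd209a DC, mature DC, plasmacytoid DC, nonclassical and classical monocytes, Kupffer cells, progenitors, basophils and mast cells, and B and plasma cells. The CD122+CD49a+ library held 747 cells of the lymphocyte classes and 285 of the DC and monocyte classes, the LSM library 250 and 1017. Although both gates are labelled lineage-negative, 625 CD122+CD49a+ cells and 78 LSM cells had at least 2 CD3 UMIs. Genes that check a class without defining it were at least 2-fold higher in their class than in the other cells for 30 of 33 pairs of gene and class in the LSM library and 14 of 15 in the CD122+CD49a+ library, and 0 were lower. Cd209a DC fell short for Itgax (1.39) and H2-Ab1 (1.74) in the LSM library and for Itgax (1.86) in the other. Flt3 fell short in LSM progenitors (1.81). For Itgae in LSM cDC1 the interval included no change (3.30, 0.766 to 11.1). A pass does not show that a class is pure. A barcode with UMIs of both a lymphocyte and another list was set aside as mixed. This took 1113 LSM barcodes (36.2%), of which 999 had a UMI of Klrd1, a gene of the lymphocyte list, while 1 had Cd3e and 0 had Ncr1. The LSM lymphocytes are therefore described below by the 78 cells with CD3 UMIs, and some values are also given with Klrd1, Klre1 and Nkg7 left out of the list, a choice made after the data were seen, which left 18 mixed LSM barcodes.

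The 10 genes gave 761 UMIs in the CD122+CD49a+ library (0.0324% of its UMIs) and 1915 in the LSM library (0.0118%). Cd160 was the most abundant of them in the CD122+CD49a+ library, at 165 UMIs per 1000000 UMIs of its pool (CPM; 149 to 182), and Lag3 in the LSM library, at 25.9 CPM (23.5 to 28.6). Tigit, a receptor for PVR, was the rarest in both, with 2 and 3 UMIs.

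**Figure D1:**
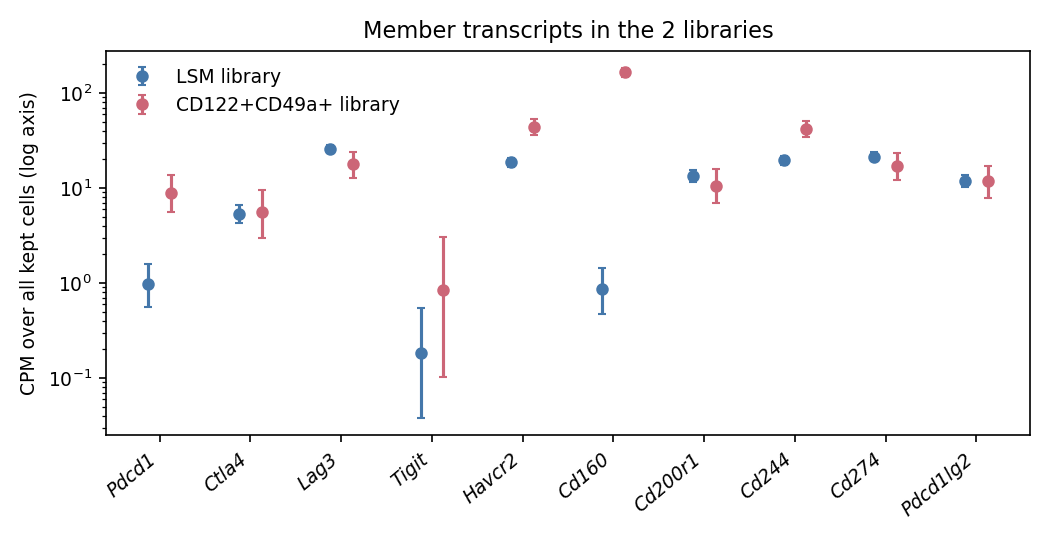
Level of each gene over all kept cells of a library, in CPM on a log axis, blue for the LSM library and red for the CD122+CD49a+ library. Points are the level and bars its 95% counting interval. Cd160 lies 191-fold higher in the CD122+CD49a+ library, Pdcd1 9.03-fold, and for Ctla4, Lag3, Tigit, Cd200r1, Cd274 and Pdcd1lg2 the intervals overlap.

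Between whole libraries, which hold different mixtures of cells, 4 of the 9 members with at least 20 UMIs over both libraries were at least 2-fold higher in the CD122+CD49a+ library, where 26.4% of the 11411 genes tested were, and 0 were 2-fold lower, where 9.67% of all genes were. Cd160 stood at 165 CPM against 0.865 CPM, a ratio of 191 (112 to 352). Pdcd1 stood at 8.93 against 0.988 CPM (9.03-fold, 4.49 to 18.5), with 9 of its 21 UMIs from 1 cell. Havcr2 at 43.8 against 18.7 CPM (2.35-fold, 1.86 to 2.95) and Cd244 at 42.1 against 19.7 CPM (2.14-fold, 1.69 to 2.68) were nearer the threshold, and both fell under it, at 1.85 and 1.69, when the libraries were scaled by the median gene. The median gene itself was 0.31 higher on the log2 scale in the CD122+CD49a+ library. Lag3 was 1.45-fold lower there (1.06 to 2.05), at 17.9 against 25.9 CPM. More cells carrying a transcript and more of it per cell cannot be told apart in such sums, so the classes are taken in turn.

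Cd160 encodes a receptor of the immunoglobulin family that is anchored in the membrane and binds HVEM, the product of Tnfrsf14. The gene lies at chr3:96798763-96829351 on the minus strand of GRCm38. RefSeq lists 2 starts for it, and the tags, which come from one end of the transcript, do not tell which was used, so the 250 bases before each start (GRCm38.p6, minus strand, 5′ to 3′) are shown because this gene sets the CD122+CD49a+ library apart. The first window spans chr3:96829352-96829601 and the second chr3:96814522-96814771. Capitals mark matches on either strand to the T-box letters TCACACC or to the kappa-B letters, GGG and CC with 5 bases of any kind between them.
Cd160 start 1: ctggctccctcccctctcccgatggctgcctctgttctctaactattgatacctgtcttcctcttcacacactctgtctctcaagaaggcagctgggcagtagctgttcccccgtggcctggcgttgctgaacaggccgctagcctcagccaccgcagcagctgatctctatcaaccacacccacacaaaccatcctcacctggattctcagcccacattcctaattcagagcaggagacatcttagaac
Cd160 start 2: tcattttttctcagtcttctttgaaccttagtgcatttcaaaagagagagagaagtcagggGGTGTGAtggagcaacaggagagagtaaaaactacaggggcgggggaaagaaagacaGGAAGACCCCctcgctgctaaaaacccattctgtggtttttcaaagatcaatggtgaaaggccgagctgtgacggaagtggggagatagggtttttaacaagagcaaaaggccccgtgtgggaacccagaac
The window of start 1 holds neither. That of start 2 holds the T-box letters 189 bases before the start and the kappa-B letters 132 bases before it, both on the reverse strand. The T-box letters occur in 3.33% and the kappa-B letters in 45.8% of the 32851 promoter windows of the same length. These matches describe the letters and are not shown to be bound.

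Of the 747 CD122+CD49a+ lymphocytes 232 had a Cd160 UMI, 31.1% (27.8 to 34.5), against 2 of the 285 cells of the DC and monocyte classes, 0.702% (0.0851 to 2.51), although the latter were deeper, with medians of 2480 and 1301 UMIs. The levels were 323 CPM (291 to 358) and 2.59 CPM (0.314 to 9.36), a ratio of 125 (34.3 to 1033). Barcodes with UMIs of both kinds of list had been set aside beforehand, which lowers what the DC and monocyte share can hold: of these 59 mixed barcodes 7 had Cd160, 11.9% (4.91 to 22.9), at 72.6 CPM. The LSM library held 14 Cd160 UMIs, in 10 of 3074 cells, and 12 of these UMIs lay in CD3 lymphocytes. None of the 1017 LSM DC and monocytes had a Cd160 UMI, which allows a share of up to 0.295%.

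Within the CD122+CD49a+ lymphocytes Cd160 was found with and without CD3. It had a UMI in 181 of 516 cells with CD3 but no CD8 UMI, 35.1% (31.0 to 39.4), and in 10 of 29 cells with no CD3 UMI and UMIs of the innate adaptors Tyrobp and Fcer1g, 34.5% (17.9 to 54.3). It had a UMI in 27 of 109 cells with CD3 and CD8, 24.8% (17.0 to 34.0), and in 11 of 74 cells with 1 CD3 UMI, 14.9% (7.66 to 25). In CPM the order was CD3 without CD8 (380, 338 to 427), no CD3 with adaptors (229, 136 to 363), CD3 with CD8 (219, 158 to 296) and 1 CD3 UMI (181, 106 to 290). The interval of the leading class did not overlap those of CD3 with CD8 and of 1 CD3 UMI, but overlapped that of the cells without CD3. The lower 3 overlapped one another. This order depended on the list: with Klrd1, Klre1 and Nkg7 left out, the cells without CD3 and with adaptors numbered 17, of which 10 had Cd160, 58.8% (32.9 to 81.6), at 408 CPM (242 to 646), above the 380 CPM of CD3 without CD8 and with overlap. Thinned to 1000 UMIs and averaged over all possible draws, the share over all lymphocytes was 24.2%, with 139 shallower cells left out.

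The CD3 lymphocytes of both gates could be set side by side. Cd160 had a UMI in 208 of 625 in the CD122+CD49a+ library, 33.3% (29.6 to 37.1), and in 8 of 78 in the LSM library, 10.3% (4.53 to 19.2). The levels were 348 and 60.2 CPM, 5.77-fold apart (3.26 to 11.3), and the thinned shares 25.5% and 5.50%. In this comparison 1 of the 5 members tested was 2-fold higher in the CD122+CD49a+ cells (27.1% of 5605 genes were) and 2 were lower (6.89% of genes), Ctla4 and Pdcd1lg2, the latter with an interval that included no change (2.39-fold, 0.946 to 5.60). The mix of CD3 cells differed, with CD8 UMIs in 109 of the 625 and 47 of the 78. Cd160 was higher in the CD122+CD49a+ library in both kinds, at 380 against 58.6 CPM (19.0 to 137) without CD8 and 219 against 61.5 CPM (24.7 to 127) with it. Each gate has 1 library, so gate and library cannot be told apart.

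Cd200r1 encodes the receptor for CD200, and it lies at chr16:44765736-44794978 on the plus strand. Among the CD122+CD49a+ lymphocytes 14 of 747 had a UMI of it, 1.87% (1.03 to 3.12), a share close to the 8 of 285 DC and monocytes, 2.81% (1.22 to 5.46). The levels were 12.3 CPM (6.70 to 20.6) and 11.7 CPM (5.33 to 22.1), a ratio of 1.05 (0.424 to 2.75). At this depth no difference between lymphocytes and DC or monocytes was detectable. The cells with no CD3 UMI and with adaptors had it in 3 of 29, 10.3% (2.19 to 27.4), an interval that reached down to the other classes. With Klrd1, Klre1 and Nkg7 left out it was 3 of 17, 17.6% (3.8 to 43.4), above the intervals of CD3 without CD8 (0.933 to 3.54) and with CD8 (0 to 3.33), a difference that rests on 3 cells.

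Cd200r1 was instead found over several myeloid classes of the LSM library. It reached 62.2 CPM (32.1 to 109) in basophils and mast cells, where 9 of 97 cells had a UMI, 25.7 CPM (14.7 to 41.7) in plasmacytoid DC (14 of 133), and 19.2 CPM (12.5 to 28.1) in Cd209a DC (18 of 230). In nonclassical monocytes 0 of 297 cells had a UMI, which allows a share of up to 1.01%. Neighbours in this order overlapped, while the monocytes lay under the plasmacytoid and Cd209a DC. In the CD122+CD49a+ library Cd209a DC led among the DC and monocyte classes of over 20 cells, with 6 of 94 cells, 6.38% (2.38 to 13.4).

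Both genes were set beside lists for ILC1 (Cxcr6, Itga1, Inpp4b, Tnfsf10, Il7r, Rora) and NK cells (Eomes, Itga2, S1pr5, Klra4, Klra8, Klf2). Among the 747 lymphocytes 625 had at least 2 CD3 UMIs and 74 had 1, so this split sorts mostly cells with CD3. The groups are named for the lists and not for cell types, and the split was not repeated in cells without CD3. Of the 747 lymphocytes, 414 had UMIs of the ILC1 list only, and 136 of them had Cd160, 32.9% (28.3 to 37.6). With the NK list only it was 11 of 44, 25% (13.2 to 40.3), with both 13 of 84, 15.5% (8.51 to 25), and with neither 72 of 205, 35.1% (28.6 to 42.1). The share with both lists lay under that with the ILC1 list only without overlap of the intervals, at medians of 1392.5 and 1284 UMIs, and the interval of the group with neither list overlapped that of the ILC1 group. Cd160 UMIs were therefore not limited to cells with UMIs of the ILC1 list.

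Gene by gene, the residency receptor Cxcr6 had a UMI in 31.0% of Cd160 cells and 31.5% of the other lymphocytes. Itga1, the gene of CD49a itself, had one in 14.2% and 7.77%. Klf2, a transcription factor of circulating lymphocytes, had one in 9.05% and 18.1%, and Il7r, the receptor for interleukin 7, in 15.5% and 24.3%. Eomes, the NK factor, was rare in both, at 1.29% and 0.971%, and each of the other NK genes was at or under 1.94%, so cells with the NK list are for the most part cells with Klf2. The Cd160 cells had the higher median depth, 1425 against 1264 UMIs. Cd200r1 had a UMI in 9 of the 414 cells with the ILC1 list only and in 0 of the 44 with the NK list only, which allows up to 6.82% and so cannot be told from the 2.17% of the former.

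**Figure D2:**
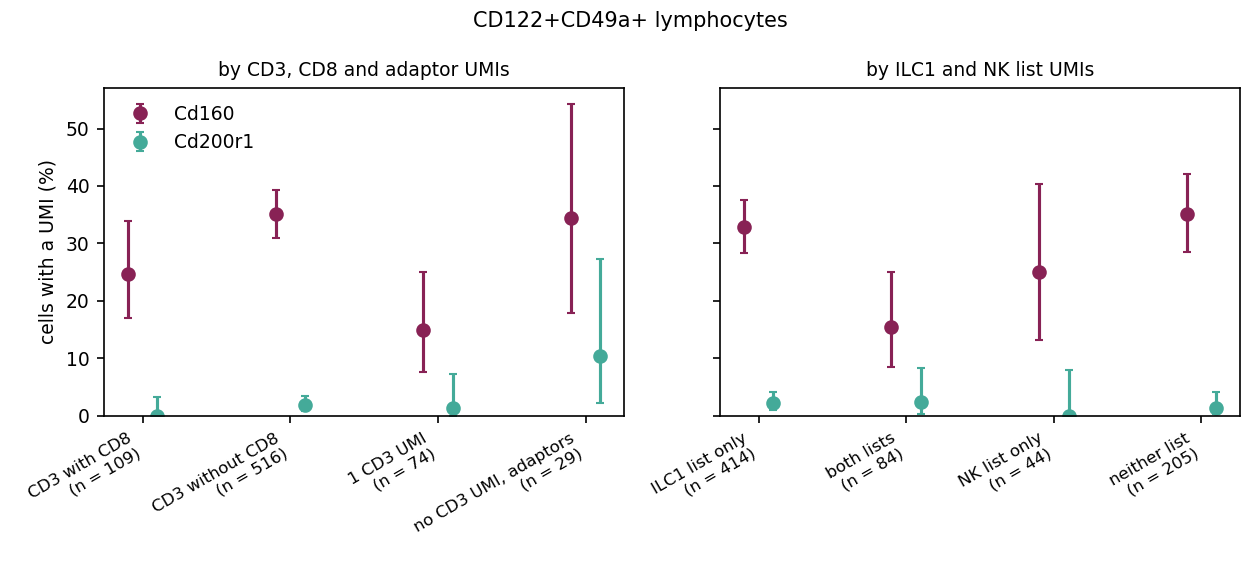
Share of CD122+CD49a+ lymphocytes with a UMI of Cd160 (purple) or Cd200r1 (green), by CD3, CD8 and adaptor UMIs on the left and by ILC1 and NK list UMIs on the right. Points are shares of cells in percent and bars 95% counting intervals. Cd160 ranges from 14.9% to 35.1%, and the highest Cd200r1 share is 10.3%, in cells without CD3. With Klrd1, Klre1 and Nkg7 left out of the lymphocyte list, which is not plotted, the cells without CD3 had 58.8% and 17.6%.

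Of the other receptors of T cell exhaustion, PD-1 recruits the phosphatase SHP-2 and CTLA-4 competes with CD28 for CD80 and CD86. Pdcd1 had 19 UMIs in 10 of the 747 CD122+CD49a+ lymphocytes and 1 UMI among their DC and monocytes, 12.8-fold apart (2.04 to 533). These UMIs were clumped: 1 cell held 9 of them, and without it the ratio was 6.76 (0.962 to 293). The LSM CD3 lymphocytes had 3 Pdcd1 UMIs in 3 of 78 cells. Among CD3 lymphocytes its level was 16.8 CPM in the CD122+CD49a+ library and 15.1 CPM in the LSM library, a ratio of 1.12 with a wide interval (0.319 to 5.98).

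Ctla4 was found in few CD122+CD49a+ lymphocytes, 13 of 747, 1.74% (0.930 to 2.96), all with CD3 UMIs. In the LSM library it had a UMI in 11 of 31 cells with CD3 and no CD8, 35.5% (19.2 to 54.6), at 187 CPM (107 to 304), and in 1 of 47 with CD8. Between the CD3 lymphocytes of the gates it was 6.25-fold lower in the CD122+CD49a+ library (2.86 to 14.0), at 13.7 against 85.3 CPM. The gap lay in the cells without CD8, at 9.21 (3.70 to 19.0) against 187 CPM, while with CD8 the levels were 31.3 (11.5 to 68.0) and 8.78 CPM (0.222 to 48.9), which overlapped. Foxp3, the factor of regulatory T cells, had a UMI in 7 of these 31 LSM cells and in 5 of the 11 with Ctla4. It had a UMI in 0 of the 516 CD122+CD49a+ cells with CD3 and no CD8, which allows up to 0.581%. Other genes read in the 11 LSM cells with Ctla4 were as frequent or rarer. Rora had a UMI in 5, Gata3 and Il7r in 4 each, Icos in 2, and Cd4 and Il1rl1 in 1 each. Which kind of T cell carried Ctla4 was not tested.

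Ctla4 was also found in the B and plasma cell class. Among the 76 LSM cells of the B and plasma cell class 35 had a Ctla4 UMI, 46.1% (34.5 to 57.9), at 114 CPM (85.6 to 149). None of the 76 had a Cd3d, Cd3e or Cd3g UMI, which the class rule favours, since a barcode that also had at least 2 UMIs of the lymphocyte list was set aside. The plasma cell genes Jchain and Mzb1 had a UMI in 72 and 74 of the 76, and in all 35 of the Ctla4 cells, while the B cell gene Ms4a1 (CD20) was in 3 of the 76 and in 0 of the 35. In the 1017 DC and monocytes, with a median of 4603 against 5563 UMIs, 3 cells had Ctla4, 0.295% (0.0609 to 0.860). With Klrd1, Klre1 and Nkg7 left out of the lymphocyte list the share was 36 of 84, 42.9% (32.1 to 54.1), and thinned to 1000 UMIs the 76 cells gave 10.9%. All 3 Tigit UMIs of the LSM library were in this class too, 1 in each of 3 cells, and the 2 of the CD122+CD49a+ library were in cells with CD3 and CD8.

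Lag3 encodes a receptor for MHC class II, and it lies at chr6:124904361-124911705 on the minus strand. It was found mainly outside the CD3 lymphocytes, of which 0 of 78 in the LSM library had a UMI, which allows up to 3.85%. Among LSM plasmacytoid DC 43 of 133 had a Lag3 UMI, 32.3% (24.5 to 41.0), at 104 CPM (80.5 to 133). The other DC and monocyte classes of over 20 cells lay at 2.64 to 8.11 CPM, under this interval. The cDC1, deeper at a median of 7902 against 4226 UMIs, had a UMI in 6 of 197 cells, 3.05% (1.13 to 6.51), at 3.73 CPM, which became 6.19 CPM with Klrd1, Klre1 and Nkg7 left out. In the CD122+CD49a+ library 5 of the 7 plasmacytoid DC had one, 71.4% (29.0 to 96.3).

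Progenitors had Lag3 in 21 of 155 cells, 13.5% (8.59 to 20), at 30.8 CPM (20.1 to 45.1). The LSM barcodes placed with lymphocytes without a CD3 UMI had Lag3 in 22 of 143 (with adaptors) and 10 of 23 (with few), at 38.1 and 154 CPM, and Klrd1 was found in 135 of the 143. With Klrd1, Klre1 and Nkg7 left out of the list, plasmacytoid DC numbered 327 with Lag3 in 112, 34.3% (29.1 to 39.7), and progenitors 390 with Lag3 in 76, 19.5% (15.7 to 23.8). By either list the interval of the plasmacytoid DC share lay above that of the progenitors.

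Among the CD122+CD49a+ lymphocytes Lag3 had 28 UMIs in 14 of 747 cells, 1.87% (1.03 to 3.12), and was 2.70-fold higher than in DC and monocytes (1.15 to 7.33). Of these UMIs 11 came from 1 cell with 1 CD3 UMI, and without it the ratio was 1.64 (0.648 to 4.69). The Lag3 difference in that library thus rested on 1 cell, whose UMIs are not independent as the interval assumes.

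Havcr2 encodes TIM-3, which binds galectin-9 and CEACAM1 and is known on cDC1 as well as on exhausted T cells. It lies at chr11:46454935-46481255 on the plus strand. Among CD122+CD49a+ cells 48 of 138 cDC1 had a UMI, 34.8% (26.9 to 43.4), at 135 CPM (104 to 172), against 10 of 747 lymphocytes, 1.34% (0.644 to 2.45), at 9.63 CPM (4.81 to 17.2). The lymphocytes were the shallower cells, with a median of 1301 against 3208 UMIs in cDC1. Over all DC and monocytes the level was 10.2-fold higher than in lymphocytes (5.41 to 21.4). In LSM CD3 lymphocytes 0 of 78 cells had a UMI, while 123 of 1017 DC and monocytes did, 12.1% (10.2 to 14.3).

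Among LSM classes of at least 20 cells Havcr2 was highest in nonclassical monocytes, with 56 of 297 cells, 18.9% (14.6 to 23.8), at 84.7 CPM (65.1 to 108). Its cDC1 followed with 37 of 197 cells, 18.8% (13.6 to 24.9), at 31.7 CPM (23.6 to 41.7), and Cd209a DC with 21 of 230, at 17.7 CPM (11.3 to 26.3). Plasmacytoid DC, at a median of 4226 UMIs, had it in 2 of 133, 1.5% (0.183 to 5.33). The nonclassical monocytes lay above cDC1 and Cd209a DC without overlap of the CPM intervals, and their cells were shallower (a median of 2372 UMIs against 7902 in cDC1). The cDC1 of the 2 gates did not overlap, at 135 and 31.7 CPM. Thinned to 1000 UMIs they had Havcr2 in 13.3% of 133 and 3.14% of 196 cells, averaged over all draws, with 5 and 1 cells left out. The 2 cDC1 classes also differed in the genes that check them. Itgae stood at 68.4 CPM in the CD122+CD49a+ class and 2.49 CPM in the LSM class. Irf8 stood at 1411 and 1032 CPM, and Batf3 at 263 and 438 CPM. Whether the Havcr2 gap belongs to the gates, to these libraries or to the cells that each class took in cannot be told apart.

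Cd244 encodes 2B4, a receptor for CD48 of the SLAM family, and it lies at chr1:171559193-171609746 on the plus strand. Of the 285 CD122+CD49a+ DC and monocytes 37 had a UMI, 13% (9.31 to 17.4), against 29 of 747 lymphocytes, 3.88% (2.62 to 5.53), at 54.4 and 29.8 CPM. The level in lymphocytes was 1.83-fold lower (1.14 to 2.96). Nonclassical monocytes led there with 8 of 32 cells, 25% (11.5 to 43.4). Cd244 in the LSM library was spread over basophils and mast cells (67.4 CPM, 35.9 to 115), nonclassical monocytes (53.8 CPM, 38.4 to 73.3), Cd209a DC (31.7 CPM, 23.0 to 42.7) and cDC1 (14.3 CPM, 9.07 to 21.5), each of which overlapped the next in the order except the last pair. None of the 78 LSM CD3 lymphocytes had a UMI. Where Cd244 was found in CD122+CD49a+ lymphocytes it often came with Cd160, in 18 of 29 cells (62.1%), against 29.8% of the cells without Cd244.

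**Figure D3:**
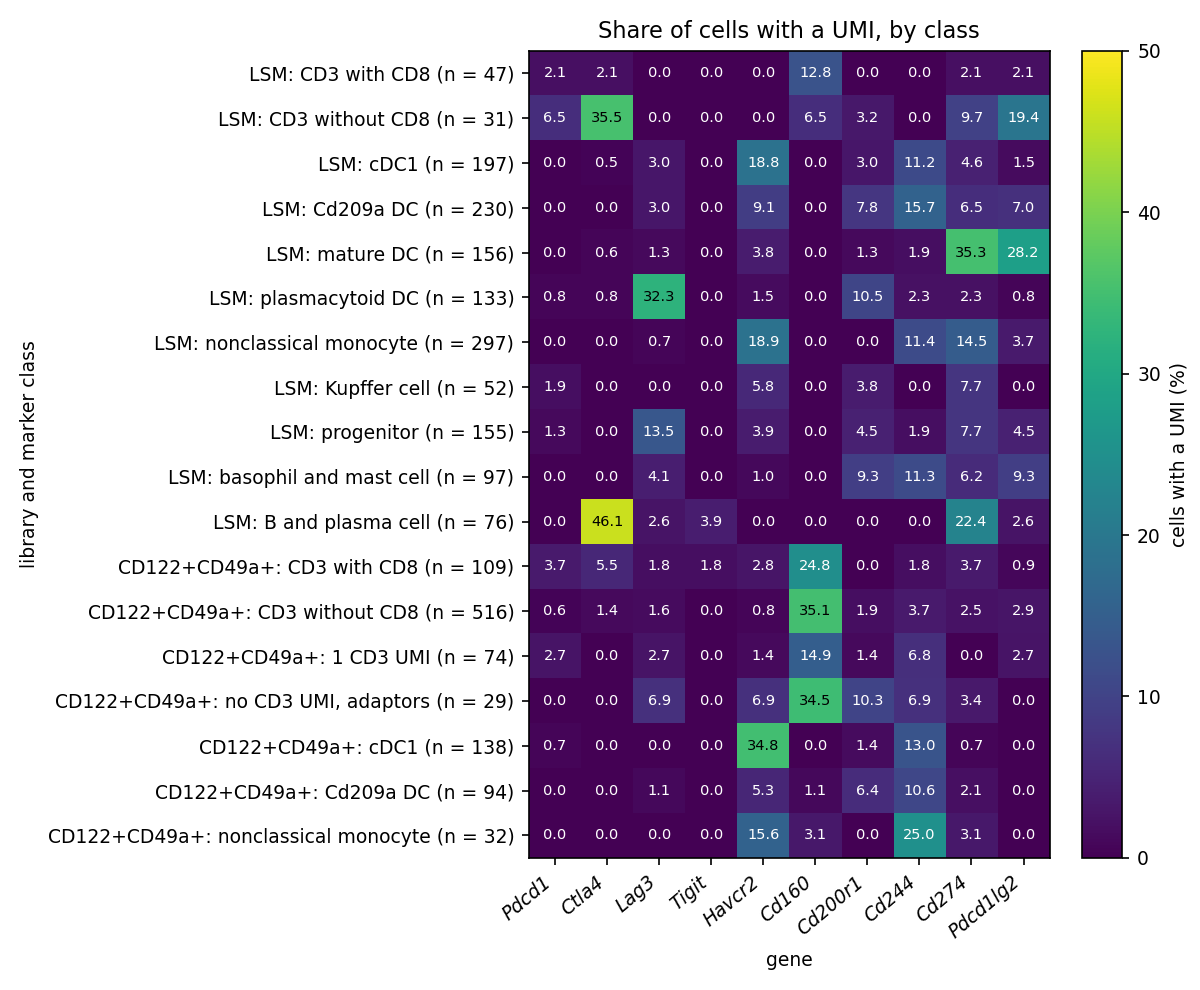
Share of cells with a UMI of each gene (columns) in marker classes of at least 20 cells (rows, with the number of cells), in percent, as the colour and the printed value. The 2 LSM lymphocyte classes without a CD3 UMI (143 and 23 cells), in which Lag3 was also found, are not plotted. The 2 libraries differ in depth, so rows compare within a library. Cd160 fills the CD122+CD49a+ lymphocyte rows, Lag3 the plasmacytoid DC (32.3%), Ctla4 the B and plasma cells (46.1%), Havcr2 the cDC1 and nonclassical monocytes, and the ligands the mature DC.

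Over the CD122+CD49a+ library as a whole, 5 of the 8 members with at least 20 UMIs were at least 2-fold higher in lymphocytes than in DC and monocytes, where 21.0% of 7458 genes were, and 1 was lower, where 12.2% were. The higher ones were Cd160, Pdcd1, Lag3, Cd274 and Pdcd1lg2, and the lower one Havcr2. Only for Cd160, Pdcd1, Lag3 and Pdcd1lg2 did the interval exclude 1, and 3 of the 5 passed 2-fold when the cell with the most UMIs of each gene was left out, a check added after the data were seen. In the LSM library, by CD3 lymphocytes, 2 of 7 were higher (20% of 8807 genes), Ctla4 and Pdcd1lg2, the latter 2.17-fold with an interval that included no change (0.967 to 4.28), and 1 was lower (14.7% of genes), Cd200r1 with 1 UMI against 52 (an interval of 0.349 to 81.8 for the fold). Lag3, Havcr2 and Cd244 had 0 UMIs in those 78 cells, too few cells to place them past 2-fold. Over all 250 LSM lymphocytes, of which 143 and 23 had no CD3 UMI, 2 of 7 were higher (4.57% of 9175 genes), Ctla4 and Lag3, and 2 lower (7.99%), Havcr2 and Cd274. The Lag3 call depended on the list. With Klrd1, Klre1 and Nkg7 left out, Lag3 stood at 36.7 CPM (16.8 to 69.6) against 22.7 CPM (19.9 to 25.9), under 2-fold.

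Of the 747 lymphocytes 245 (32.8%) had a UMI of 1 of the 8 receptor genes, 33 (4.42%) of 2, 3 of 3 and 1 of 4, and 465 (62.2%) of none. In the 78 LSM CD3 lymphocytes 22 had 1 receptor gene and 1 had 2. The median depth was 1227 UMIs in the cells with none and 1544 in those with 2, so detection moved with depth, and its part in these counts was not tested.

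The PD-1 ligand genes lie near each other on chromosome 19, Cd274 at chr19:29367455-29388095 and Pdcd1lg2 at chr19:29410919-29471161, both on the plus strand and 22824 bases apart. Interferon and kappa-B signals are known inducers of these ligands, and mature DC are a known source. The 250 bases before each RefSeq start (GRCm38.p6, plus strand) are shown because both genes were high in the same class. They span chr19:29367188-29367437 and chr19:29410669-29410918, and capitals mark the kappa-B letters as above.
Cd274: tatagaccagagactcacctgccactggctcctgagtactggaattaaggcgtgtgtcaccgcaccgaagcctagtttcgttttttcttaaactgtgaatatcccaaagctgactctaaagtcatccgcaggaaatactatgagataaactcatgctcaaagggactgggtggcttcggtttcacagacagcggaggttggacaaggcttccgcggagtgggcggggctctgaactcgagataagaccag
Pdcd1lg2: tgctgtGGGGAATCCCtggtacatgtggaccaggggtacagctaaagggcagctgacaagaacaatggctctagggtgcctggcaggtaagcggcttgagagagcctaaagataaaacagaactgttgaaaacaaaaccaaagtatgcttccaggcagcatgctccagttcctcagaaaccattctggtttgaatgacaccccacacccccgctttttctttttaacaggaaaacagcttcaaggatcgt
The kappa-B letters begin 244 bases before the Pdcd1lg2 start, where both strands match the pattern, and do not occur in the Cd274 window. The letters GAAA, 2 bases of any kind and GAAA again, searched on both strands for interferon regulatory factors and present in 2.98% of all windows, occur in neither. Absence from this window says nothing of a factor's use elsewhere.

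In the LSM library 55 of 156 mature DC had a Cd274 UMI, 35.3% (27.8 to 43.3), at 104 CPM (82.6 to 130), and 44 had a Pdcd1lg2 UMI, 28.2% (21.3 to 36), at 88.4 CPM (68.5 to 112). Over the other DC and monocyte classes together the levels were 18.7 and 8.99 CPM, so that Cd274 was 5.59-fold (4.05 to 7.71) and Pdcd1lg2 9.84-fold (6.53 to 15.0) higher in mature DC. Both were the members among the 6 tested that were 2-fold higher there, where 8.67% of 8672 genes were. The other 4, Lag3, Havcr2, Cd200r1 and Cd244, were 2-fold lower, where 24.1% of genes were, with an interval for Cd200r1 that included no change (2.85-fold, 0.920 to 14.3). Of the 55 Cd274 cells 23 also had Pdcd1lg2 (41.8%), against 20.8% of the mature DC without Cd274. With Klrd1, Klre1 and Nkg7 left out of the lymphocyte list the class held 243 cells, with Cd274 in 35.4% and Pdcd1lg2 in 24.7%, the Cd274 ratio was 8.19, and Havcr2, at 0.588 of the level in the others, was no longer 2-fold lower. Thinned to 1000 UMIs, mature DC had Cd274 in 10.4% and Pdcd1lg2 in 8.43% of cells, and the other DC and monocytes in 2.99% and 1.03%. In the CD122+CD49a+ library the mature DC class had 8 cells, 1 of them with Cd274.

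Outside the mature DC the ligands parted. Nonclassical monocytes had Cd274 in 43 of 297 cells, 14.5% (10.7 to 19.0), at 67.3 CPM (49.9 to 88.7), but Pdcd1lg2 in 11, 3.70% (1.86 to 6.53), at 16.1 CPM (8.34 to 28.2). B and plasma cells had Cd274 in 17 of 76 cells, 22.4% (13.6 to 33.4), at 56.0 CPM (36.6 to 82.1), and Pdcd1lg2 in 2. Basophils and mast cells had Cd274 at 31.1 CPM (11.4 to 67.7) and Pdcd1lg2 at 51.8 CPM (24.9 to 95.3), and Cd209a DC had 12.5 and 16.2 CPM, the latter 8.71 CPM (6.06 to 12.1) with Klrd1, Klre1 and Nkg7 left out. Kupffer cells had Cd274 at 35.3 CPM (13 to 76.9). Among these classes the order for Cd274 was mature DC, nonclassical monocytes, B and plasma cells, Kupffer cells, basophils and mast cells, and Cd209a DC, with each overlapping the next. For Pdcd1lg2 the mature DC lay above nonclassical monocytes and Cd209a DC without overlap, and overlapped basophils and mast cells. The cDC1 were low in both, at 5.60 (2.56 to 10.6) and 2.49 CPM (0.678 to 6.37).

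**Figure D4:**
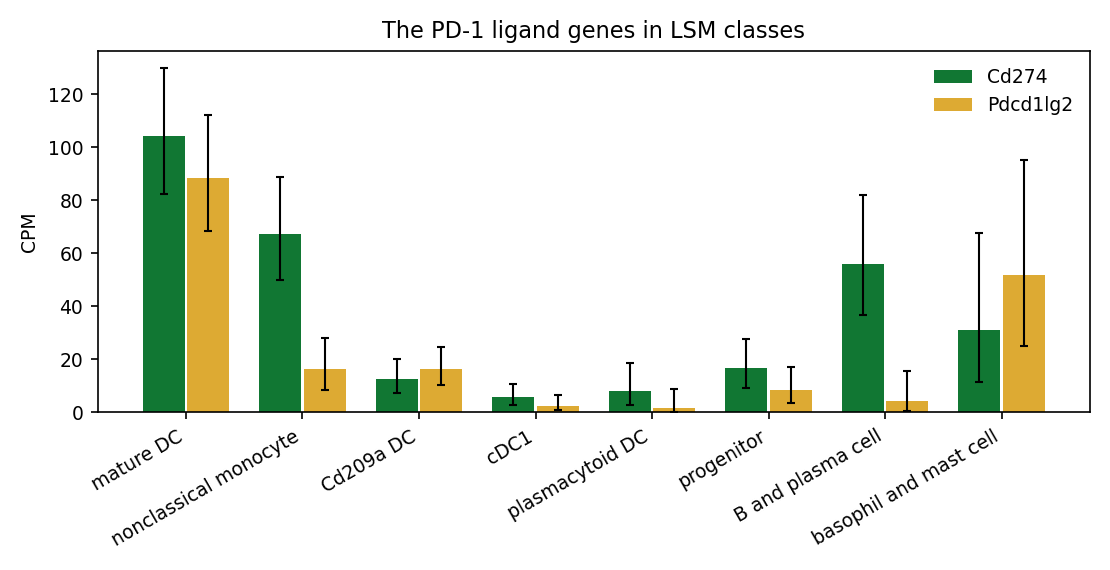
Level of Cd274 (green) and Pdcd1lg2 (yellow) in classes of the LSM library, as bars in CPM from 0 with 95% counting intervals as error bars. Among the 8 classes plotted both are highest in mature DC (104 and 88.4 CPM), whereas nonclassical monocytes and B and plasma cells are high in Cd274 but not in Pdcd1lg2 (67.3 and 56.0 CPM).

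Pdcd1lg2 was also found in lymphocytes with CD3 UMIs. In the CD122+CD49a+ library 18 of 747 lymphocytes had a UMI, 2.41% (1.43 to 3.78), 15 of them with CD3 and no CD8. With the full lymphocyte list 0 of 285 DC and monocytes had one, which allows up to 1.05%. The level in lymphocytes, 17.5 CPM (10.7 to 27.0), was 4.50-fold higher with the empty pool set at 3 counts. Barcodes set aside as mixed were in neither pool, and 3 of these 59 had Pdcd1lg2, at 39.1 CPM (15.7 to 80.5). With Klrd1, Klre1 and Nkg7 left out, the DC and monocytes had 4 UMIs, all in 1 of 327 cells, at 4.45 CPM (1.21 to 11.4). The lymphocytes then stood at 18.6 CPM (11.3 to 28.7), and the 2 intervals overlapped narrowly. In the LSM library 6 of 31 cells with CD3 and no CD8 had a Pdcd1lg2 UMI, 19.4% (7.45 to 37.5), at 93.7 CPM (40.5 to 185), a level that overlapped that of mature DC. Cd274 had a UMI in 18 of 747 CD122+CD49a+ lymphocytes, 2.41% (1.43 to 3.78), and was 2.14-fold above the DC and monocytes there, with an interval that included 1 (0.821 to 6.54). Its share was higher among the cells of that library that no list placed, 11 of 147, 7.48% (3.79 to 13), at 57.4 CPM (29.7 to 100.3). Mature DC, the leading class of the LSM library, made up 8 of the 285 cells and 156 of 1017.

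Other genes of these pathways were read from lists of 12 further ligands, 8 further inhibitory receptors, 7 activating counterparts, 9 signalling genes and 10 transcription factors. Nectin2 and Nectin3 were not analysed here. In the CD122+CD49a+ library, lymphocytes against DC and monocytes, 4 of 8 further inhibitory receptors were 2-fold higher and 3 lower, where 21.0% of all genes tested were higher and 12.2% lower. The higher ones included Klrc1 (NKG2A, which binds Qa-1), at 132 against 1.30 CPM, and Cd96 (which binds PVR), at 53.4 against 3.89 CPM. The lower ones were Btla, another receptor for HVEM (14.9 against 89.4 CPM), Lair1 (3.50 against 29.8) and Cd300a (9.63 against 111). All 5 activating counterparts tested were higher, among them Cd226, which shares PVR with TIGIT (283 against 6.48 CPM), and Cd28, with 135 UMIs against 0. The median log2 ratio was 1.74 for the further inhibitory receptors and 4.93 for the activating counterparts, against 0.28 over all genes tested. The lymphocytes were chosen by CD3 and NK genes, so genes that T cells carry would be higher there by that choice. Tnfrsf9 and Tnfrsf4 had too few UMIs to be tested. The 2 medians therefore do not weigh activating against inhibitory genes.

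Of the further ligands 2 of 6 tested were higher in the lymphocytes and 2 lower. Lgals9 (galectin-9), a ligand of TIM-3, stood at 95.4 against 38.9 CPM, and Ceacam1, another, at 0 UMIs against 35. Cd86, a ligand of CTLA-4, was 16-fold lower in lymphocytes (6.98 to 45.3). Tnfrsf14, the ligand gene of CD160, had 1 UMI in each pool and was not tested. Of the signalling genes 4 of 9 were higher and 1 lower. The adaptor Sh2d1a (SAP), which couples 2B4, stood at 140 against 1.30 CPM, the related Sh2d1b1 (EAT-2), the lower one, at 5.25 against 28.5, and the phosphatases Ptpn6 (SHP-1) and Ptpn11 (SHP-2) differed by less than 2-fold (147 against 189 and 28.9 against 31.1 CPM). Of the transcription factors 6 of 9 were higher and 1, Nr4a1, was lower. Tox stood at 44.6 CPM and Tbx21 at 120 CPM in lymphocytes, both with 0 UMIs in the other pool, and Maf at 271 against 3.89 CPM.

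In the LSM library, mature DC against the other DC and monocytes, 3 of 8 further ligands were 2-fold higher and 3 lower, where 8.67% of all genes tested were higher and 24.1% lower. The higher ones were Cd200, the ligand of CD200R (152 against 15.4 CPM, 9.83-fold, 7.21 to 13.5), Pvr, a ligand of TIGIT (14.5 against 3.23 CPM), and Cd80, a ligand of CTLA-4 (13.2 against 3.46 CPM). Cd86 was 1.54-fold higher (1.13 to 2.07). The lower ones were Cd48, the ligand of 2B4 (136 against 384 CPM), Lgals9 (6.6 against 23.7) and Ceacam1 (7.92 against 67.5). Of the further inhibitory receptors 0 of 4 tested were higher and 4 lower. Among the ligand genes read, Cd274, Pdcd1lg2, Cd200, Pvr and Cd80 were thus 2-fold higher in mature DC than in the other DC and monocytes. Cd48, Lgals9 and Ceacam1 were 2-fold lower there. Pvr and Cd80 rest on 11 and 10 UMIs in mature DC, and Cd86, the other CTLA-4 ligand, did not reach 2-fold.

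Genes whose levels ran most like a member's over the 20 library classes of at least 20 cells were found by the Pearson correlation of log2(CPM + 10). For Cd160 they were Thy1 (0.96), Zap70 (0.95) and Cxcr6 (0.95), and for Havcr2 Cdk14 (0.93), Rasgrp4 (0.90) and Cd36 (0.90). For Cd274 they were Tank (0.80), Fas (0.71) and Htra2 (0.71), for Lag3 Rab6b (0.85), Stk16 (0.83) and Ahi1 (0.81), and for Ctla4 Slamf6 (0.85), Sfn (0.78) and Ndufa13 (0.77). The classes of a library share its depth and free RNA, so these values describe the profiles and carry no test.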

How the data were processed

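Liver cells from 2 sorting gates were profiled with droplet single-cell libraries, 1 per gate. The authors deposited a matrix of raw UMI counts per gene and barcode for each library, written by matrix software version 3.0.1 per the file headers. The submitters' processing notes name STAR, Seurat 2.3.0 and GRCm38, with no role given, and no source used here says how barcodes were chosen. The libraries held 3133 and 1655 barcodes; 59 and 398 had under 500 detected genes and were left out of the main values.

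The 10 genes and all gene lists were chosen with earlier results of these data known. The NK list is used without 1 gene first chosen for it, which is not reported here. A class needed at least 2 UMIs over its marker list, and barcodes that met lists of a lymphocyte and another class were set aside. Doublets were otherwise kept; Scrublet marked 0.423% and 0.398% of cells by its own threshold, which is too few to rely on, and removing its 77 and 17 highest-scoring cells was tried as an alternative. Levels (CPM) are UMIs of a gene per 1000000 UMIs of a pool of cells, with exact Poisson intervals; shares have exact Clopper-Pearson intervals, ratios exact conditional binomial intervals, all at 95%. A ratio against 0 UMIs used 3 counts for the empty pool, and the limit given for a share of 0 used 3 cells. Genes with at least 20 UMIs over both pools were tested for a 2-fold difference, over all genes of the table. Shares at matched depth are for 1000 UMIs per cell, averaged over all possible draws without replacement, since single random draws varied. With 1 library per gate there was no test across samples.

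Named genes were the 10 members, genes of the pathway lists, and, for each member with at least 50 UMIs, the 3 genes of at least 100 UMIs with the highest correlation to it over classes. Foxp3 and the other genes given with it, Jchain, Mzb1, Ms4a1 and the CD3 chains beside Ctla4 were chosen after its values were seen. Gene positions came from GENCODE M21 (GRCm38), where 27645 of 27998 identifiers (98.7%) were found, and promoters from RefSeq (GRCm38.p6), where 7 of the 10 members matched. Alternatives were other gene minimums, UMI minimums, scalings, class and fold thresholds and thinning depths, a mitochondrial limit, mixed barcodes kept and doublets removed. Added after the data were seen were a lymphocyte list without Klrd1, Klre1 and Nkg7, CD3 lymphocytes alone, and pools without the lymphocyte richest in each gene. Calculations used Python 3.11.15, numpy 2.4.6, scipy 1.17.1, pandas 2.3.3, scanpy 1.11.5 and matplotlib 3.10.9, and were tested on simulated data.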

Additional observations from a re-analysis of the deposited data

Results flagged for a closer look

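The 398 barcodes of the CD122+CD49a+ library with under 500 detected genes entered no comparison, yet 8 of the 10 genes had more UMIs there than the 3 that a count of 0 allows. Cd160 had 42 UMIs in 35 barcodes, at 150 CPM. Havcr2 and Cd244 had 15 each, Cd274 had 13, Pdcd1lg2 had 9 and Cd200r1 had 8. Ctla4 and Lag3 had 4 each. In the 59 such LSM barcodes no member was above 3 UMIs.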

How the results depend on the processing

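Of 107 values that alternatives gave for the 13 main results, 86 kept their direction and size, 21 moved and 0 reversed; of 432 for 59 single values, 410 were kept, 21 moved and 1 reversed. At a minimum of 1000 genes, which left 52 CD122+CD49a+ lymphocytes, Cd244 reversed to 1.17-fold higher in lymphocytes (0.490 to 2.59), the Cd160 share was 40.4%, that with the ILC1 list only 39.1%, the matched-depth share 17.6% and the Cd200r1 share 0%, and 1 member was higher in lymphocytes in each library. Scaling by the median gene or by the mean CPM per cell left 2 members higher in the CD122+CD49a+ library instead of 4. Called at 4-fold, 3 members were higher in CD122+CD49a+ lymphocytes, 1 in LSM lymphocytes and 0 in LSM DC and monocytes. The share over all genes was not taken at the alternative settings, except for CD3 lymphocytes alone. Counts of members at the others therefore have no background to be read against. The Cd160 share at matched depth, 24.2% at 1000 UMIs, was 32.0% at 1500, 18.7% at 700 and 31.1% unthinned. Removing the highest doublet scores, or the lymphocyte richest in each gene, left 3 members higher in CD122+CD49a+ lymphocytes. With Klrd1, Klre1 and Nkg7 left out, 1 member was higher in LSM DC and monocytes and the Cd274 ratio in mature DC was 8.19. That member was Cd200r1, at 15.1 against 4.07 CPM in lymphocytes, which rest on 1 UMI. Havcr2 and Cd274, the main calls, no longer passed, with Havcr2 at 0 UMIs in lymphocytes and Cd274 at 24.6 against 24.4 CPM. Among the members higher in LSM lymphocytes, Lag3 no longer passed, at 36.7 against 22.7 CPM in DC and monocytes. Pdcd1lg2 passed instead, at 40.7 against 14.3 CPM. With CD3 lymphocytes alone, 1 was higher in LSM DC and monocytes (14.7% of 8807 genes), again Cd200r1. In the CD122+CD49a+ library 2 were then higher and 2 lower in lymphocytes (19.7% and 13.5% of 7096 genes). The cause of these shifts was not tested beyond the smaller number of cells or genes that an alternative leaves. No paired analysis was possible because each gate has 1 library, and for the same reason no library could be left out. Depth limits the rare members: Tigit, Pdcd1 and Ctla4 had 2, 21 and 13 UMIs in the CD122+CD49a+ library.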
